A study of Homo sapiens with 6 samples.

Results

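The small leucine-rich proteoglycans examined here were decorin (DCN), biglycan (BGN), asporin (ASPN), lumican (LUM), fibromodulin (FMOD), PRELP, osteomodulin (OMD) and osteoglycin (OGN). Their members were the probe sets whose single annotated gene symbol was one of these 8 names, which gave 15 of the 22215 probe sets fitted, over 8 of 11963 genes. DCN had 4 probe sets, BGN 3, PRELP and OMD 2 each, and the other genes 1 each. Probe sets of 1 gene share a transcript and are not replicates of a condition.

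RNA came from U87, an established human glioblastoma cell line, grown for 16 h in DMEM with 10% FBS and glutamine. The 3 IRE1dn arrays were from U87 cells that express, from a transgene, a dominant negative form of IRE1alpha, the endoplasmic reticulum stress sensor, and the labels give a single clone name for them. The 3 ctrl arrays were from U87 cells carrying the empty plasmid, described in the plural as clones with none assigned to an array. The promoter that drives the transgene is not given in the sources used here. The labels do not state that the replicates came from separate cultures. The p-values therefore refer to the spread between these arrays, which may be technical, and a difference between groups cannot be told apart from a difference between clones. The series was made to find genes linked to invasion and blood vessel formation.

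Small leucine-rich proteoglycans are secreted proteins built from leucine-rich repeats, most of which carry chondroitin, dermatan or keratan sulfate chains. They bind collagen fibrils and set how wide the fibrils grow and how they are spaced. Several also bind growth factors or their receptors: decorin is known as a ligand of TGF-beta and as an antagonist of the EGF and HGF receptors, and has been studied as an inhibitor of glioma growth and of angiogenesis. They are products mainly of fibroblasts and other connective tissue cells.

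Signals are in the scaled units of the deposited table, in which every array had a mean of 100 after 2% was trimmed at each end. Array medians lay between 18.4 and 21.0 units. Correlations between arrays over all probe sets were 0.974 to 0.979 within IRE1dn, 0.959 to 0.967 within ctrl and 0.930 to 0.951 between groups. Log2 changes are IRE1dn minus ctrl on the log2(signal + 1.75) scale, which understates the change of dim probe sets, and p-values are limma's after Benjamini-Hochberg adjustment over all 22215 probe sets, called below 0.05. A signal of 7.55 units, the 40th percentile of mean log2 signals, serves as a mark of low level: values under it may be mostly background and are not called present or absent. Only 5 of the 15 probe sets had a mean above it.

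In IRE1dn cells 3 of the 8 genes rose, DCN, LUM and BGN, and all 8 of their probe sets passed the threshold. Over all genes by their brightest probe set 9.2% rose, and over all probe sets 8.15% rose; which direction had more calls depended on the scaling of the arrays. None of the 15 probe sets fell in limma at the adjusted threshold, where 7.05% of all probe sets did. Over only 15 probe sets a count of 0 lies near that share and is no result about the members. None was lower at an unadjusted limma p under 0.05 either (0 probe sets), a level at which all probe sets were not counted. The groups did not overlap, with IRE1dn higher, for the same 8 probe sets, where 18.4% of all probe sets showed this. The other 5 genes, with 7 probe sets, did not pass, and their signals stayed between 0.139 and 19.4 units. The number of members that rose was 5 without IRE1dn array 1 or IRE1dn array 2, and 6 without any of the other arrays. The DCN and LUM probe sets passed in every one of these fits.

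**Figure D1:**
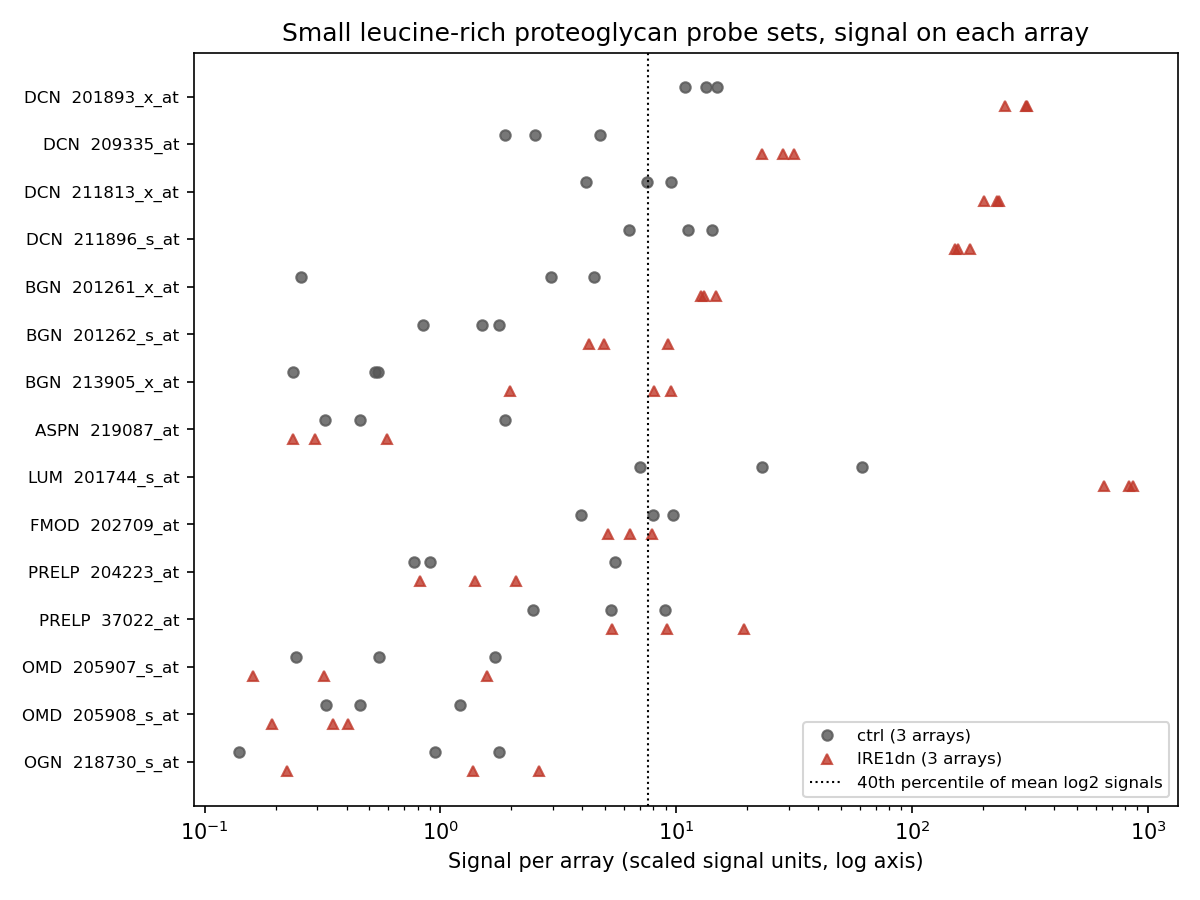
Signal of each of the 15 probe sets (rows) on each array, on a log axis in scaled signal units, with circles for the 3 ctrl arrays and triangles for the 3 IRE1dn arrays. The dotted line is the signal of 7.55 units. The DCN, BGN and LUM rows show the groups apart, and the other rows show them mixed.

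Decorin, a small proteoglycan with a single chondroitin or dermatan sulfate chain, was higher in IRE1dn than in ctrl cells on all 4 of its probe sets. Its brightest probe set, 201893_x_at, measured 10.9, 13.3 and 14.8 units on ctrl arrays 1 to 3 and 246, 304 and 306 units on IRE1dn arrays 1 to 3. The lowest IRE1dn array was 16.6 times the highest ctrl array. The change was 4.28 (95% interval 3.82 to 4.75; limma adjusted p = 1.3e-05).

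The other decorin probe sets gave the same direction at other sizes. Probe set 211813_x_at measured 7.54, 4.14 and 9.45 units in ctrl and 202, 233 and 229 units in IRE1dn cells, a change of 4.71 (95% interval 4.08 to 5.34; limma adjusted p = 2.4e-05). Probe set 211896_s_at measured 11.2, 6.33 and 14.2 units in ctrl and 176, 156 and 152 units in IRE1dn cells, a change of 3.78 (3.14 to 4.42; limma adjusted p = 9.7e-05). The dimmest, 209335_at, measured 4.75, 1.87 and 2.51 units in ctrl and 28.2, 31.6 and 23.0 units in IRE1dn cells, and rose by 2.65 (1.80 to 3.49; limma adjusted p = 0.0023). Its interval lay below those of 201893_x_at and 211813_x_at and overlapped that of 211896_s_at. With a pseudocount of 16 the 4 changes were 3.37 (201893_x_at), 3.37 (211813_x_at), 2.75 (211896_s_at) and 1.19 (209335_at). Of the 4, 2 are of the x type, whose probes can also bind other transcripts, and 209335_at is not.

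Lumican, a keratan sulfate proteoglycan that regulates collagen fibril assembly, had 1 probe set. It measured 23.1, 7.02 and 61.4 units on ctrl arrays 1 to 3 and 861, 828 and 654 units on IRE1dn arrays 1 to 3. The ctrl arrays differed from each other by 8.74 times (highest over lowest) and the IRE1dn arrays by 1.32 times, yet the lowest IRE1dn array was 10.6 times the highest ctrl array. The change was 5.02 (95% interval 3.75 to 6.29; limma adjusted p = 0.00078). It was 4.30 without ctrl array 2, the lowest control, and 5.72 without ctrl array 3, the highest, and 4.27 with a pseudocount of 16. The lumican interval overlapped the intervals of 3 of the 4 decorin probe sets and lay above that of 209335_at (1.80 to 3.49). The changes of lumican and decorin were not tested against each other and are not ordered here.

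Biglycan, the closest relative of decorin, which carries a pair of such chains, rose from very low signals. Probe set 201261_x_at measured 4.50, 2.96 and 0.256 units on ctrl arrays 1 to 3 and 13.0, 14.7 and 12.7 units on IRE1dn arrays 1 to 3, a change of 1.96 (95% interval 0.91 to 3.01; limma adjusted p = 0.022). Probe set 213905_x_at measured 0.543, 0.527 and 0.237 units in ctrl and 9.46, 8.06 and 1.97 units in IRE1dn cells, a change of 1.77 (0.79 to 2.75; limma adjusted p = 0.025). Probe set 201262_s_at measured 0.843, 1.50 and 1.78 units in ctrl and 4.93, 9.21 and 4.27 units in IRE1dn cells, a change of 1.30 (0.48 to 2.11; limma adjusted p = 0.041).

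Every ctrl signal of biglycan lay under the mark of 7.55 units, as did 3 of the 9 IRE1dn signals, and no biglycan probe set had a mean above it. Of the 3 biglycan probe sets, 2 are of the x type, whose probes can also bind other transcripts, and 201262_s_at is not. The biglycan calls were less firm than those of decorin and lumican. That of 201261_x_at ended without any 1 of the IRE1dn arrays (limma adjusted p up to 0.083), that of 201262_s_at without any 1 of the 6 arrays (0.061 to 0.14), and that of 213905_x_at without any array except IRE1dn array 3 (up to 0.093). With a pseudocount of 16 the changes were 0.67, 0.34 and 0.44, and the call of 213905_x_at ended (0.055). The biglycan values are therefore given as an increase in a low signal, with no firm size.

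**Figure D2:**
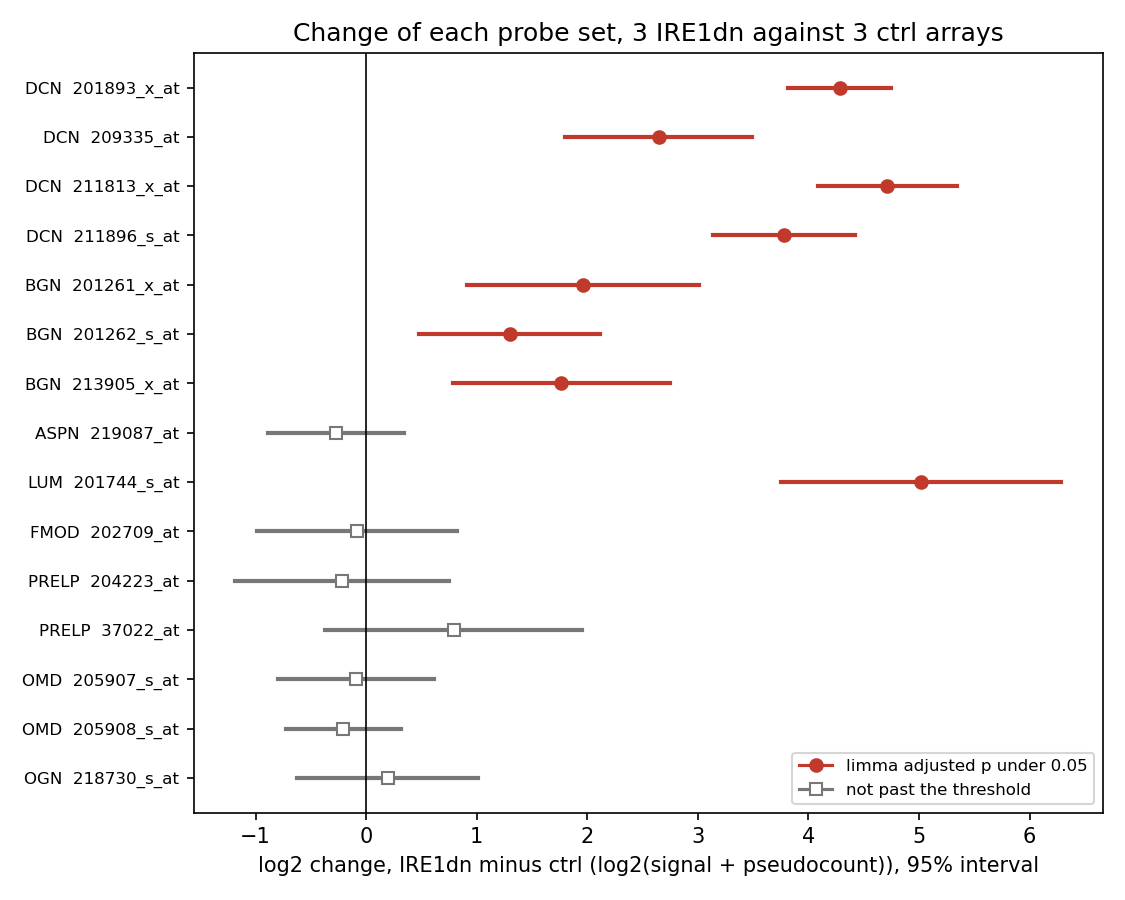
Log2 change of each of the 15 probe sets (rows), IRE1dn minus ctrl, with its 95% interval from limma; filled circles passed the threshold and open squares did not. DCN and LUM lie between 2.65 and 5.02, BGN between 1.30 and 1.96, and the other intervals all include 0.

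**Figure D3:**
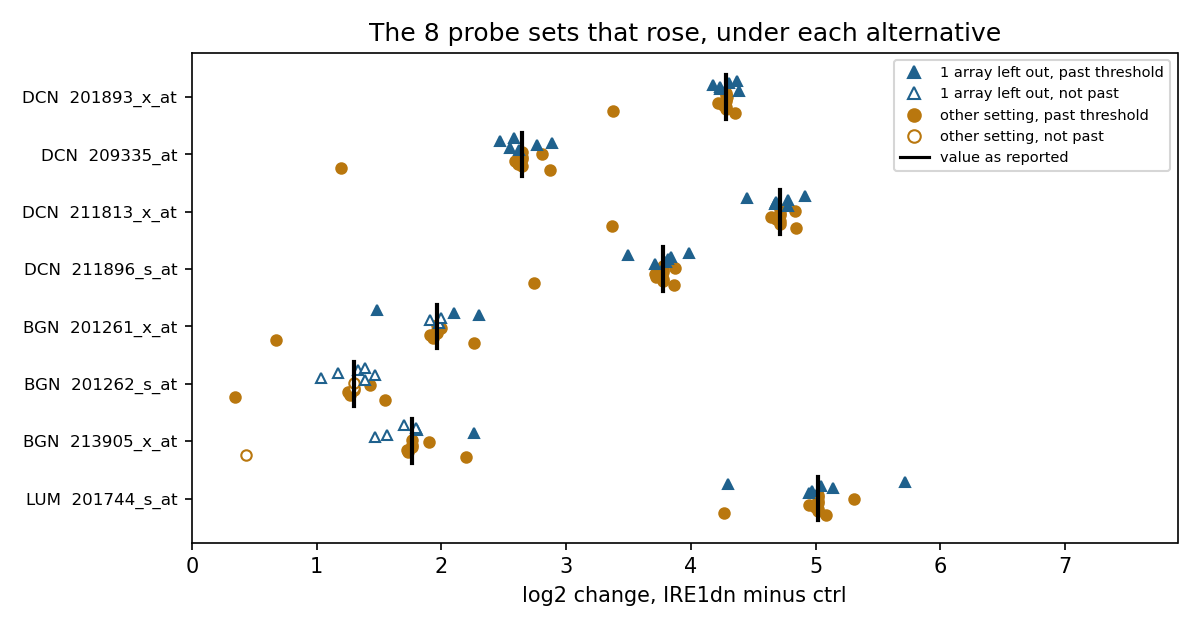
Log2 change of the 8 probe sets that rose (rows) with each array left out (triangles) and under each other setting (circles), filled where the limma adjusted p stayed under 0.05; the black bar is the value as reported. Open symbols occur in the 3 BGN rows only.

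The reference table of RefSeq promoters (GRCh38.p14) had entries for 5 of the 8 genes; DCN, LUM and OMD had none. FMOD, PRELP, ASPN and OGN had entries and did not pass the threshold. The 250 bases before the start are shown for BGN, the member that rose with an entry, and for FMOD, an example of the others. Both are written 5′ to 3′ on the strand of the gene. Capitals mark matches, on either strand, to any of 4 motifs. GGGCGG is the core that binds Sp1. TATAAA is the core promoter element of that name. TGANTCA is the site of AP-1 factors with any base in the middle. CCACG is a part of the ER stress response element. BGN lies on the plus strand at chrX:153494730-153494979 and FMOD on the minus strand at chr1:203351123-203351372.
BGN: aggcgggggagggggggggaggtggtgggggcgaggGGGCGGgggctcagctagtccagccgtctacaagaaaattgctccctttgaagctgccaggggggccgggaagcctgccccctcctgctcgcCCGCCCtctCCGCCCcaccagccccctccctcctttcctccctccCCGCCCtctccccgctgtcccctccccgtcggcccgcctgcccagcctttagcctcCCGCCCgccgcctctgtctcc
FMOD: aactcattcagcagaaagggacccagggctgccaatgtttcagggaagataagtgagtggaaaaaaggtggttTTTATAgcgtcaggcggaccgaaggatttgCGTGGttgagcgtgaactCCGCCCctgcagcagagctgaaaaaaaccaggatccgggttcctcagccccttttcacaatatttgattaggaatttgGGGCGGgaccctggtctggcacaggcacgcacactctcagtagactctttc

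The BGN stretch held 5 matches to GGGCGG and none to the other 3 motifs, and the FMOD stretch held 2 to GGGCGG, 1 to TATAAA and 1 to CCACG. Over all 35116 promoters of that length, 42.6% held GGGCGG, 10.7% TATAAA, 6.57% TGANTCA and 33.5% CCACG. The G and C content was 74.0% for BGN and 51.6% for FMOD, against a median of 58.0% over all promoters. PRELP had 52.8%, ASPN 32.4%, and the OGN entries 36.0% and 31.2%. A match is a description of the letters and not a site of binding.

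The remaining members were dim in both groups. Asporin, the other close relative of decorin, lies in cartilage and tendon matrix and binds TGF-beta. It measured 0.324, 1.89 and 0.457 units in ctrl and 0.237, 0.593 and 0.293 units in IRE1dn cells. Its change was -0.27 (95% interval -0.88 to 0.35; limma adjusted p = 0.58), and the groups overlapped.

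Fibromodulin, which shares a collagen binding region with lumican, measured 3.96, 9.71 and 7.93 units in ctrl and 7.86, 5.11 and 6.36 units in IRE1dn cells. Its change was -0.08 (95% interval -0.99 to 0.82; limma adjusted p = 0.93). The arrays of both groups were mixed around the mark of low level, and the sign turned with ctrl array 2 or 3 or IRE1dn array 2 left out.

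PRELP, which links the basement membrane to the underlying matrix, had probe sets that differed in sign. Probe set 37022_at measured 2.47, 8.91 and 5.30 units in ctrl and 5.36, 9.17 and 19.4 units in IRE1dn cells, a change of 0.79 (95% interval -0.37 to 1.96; limma adjusted p = 0.37). Probe set 204223_at measured 5.51, 0.775 and 0.905 units in ctrl and 0.820, 2.09 and 1.39 units in IRE1dn cells, a change of -0.22 (-1.18 to 0.75; limma adjusted p = 0.80). The highest value of the first came from IRE1dn array 3 alone.

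Osteomodulin, a keratan sulfate proteoglycan of bone, stayed between 0.161 and 1.71 units on both of its probe sets. Probe set 205907_s_at changed by -0.09 (95% interval -0.79 to 0.61; limma adjusted p = 0.89) and 205908_s_at by -0.21 (-0.73 to 0.31; limma adjusted p = 0.62). Osteoglycin, also called mimecan, measured 0.139, 0.950 and 1.78 units in ctrl and 1.38, 0.224 and 2.62 units in IRE1dn cells. Its change was 0.19 (95% interval -0.62 to 1.01; limma adjusted p = 0.79). At such signals the pseudocount holds the log2 change near 0, so these intervals bound the change on this scale only and not the ratio of transcripts.

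Most of these genes lie in clusters, and the changes followed no cluster as a whole. By gene order in RefSeq (GRCh38.p14), EPYC, KERA, LUM and DCN are neighbours on chromosome 12. LUM and DCN rose there. Epiphycan (EPYC), a cartilage member, measured 1.54 ± 0.338 units in ctrl and 4.58 ± 1.62 units in IRE1dn cells (SD, n = 3 each), a change of 0.92 (SE 0.33; limma adjusted p = 0.098), with no overlap between groups, as for 19.4% of all genes in that direction. Keratocan (KERA), a corneal member, stayed at or below 2.08 units (change 0.23, SE 0.36; limma adjusted p = 0.74). Of the genes flanking this cluster, the ERK phosphatase DUSP6 fell by 3.08 (SE 0.24; limma adjusted p = 0.00012) and the calcium pump ATP2B1 fell by 1.24 (SE 0.27; limma adjusted p = 0.016). On the other side BTG1 changed by -0.10 (SE 0.16) and EEA1 by -0.80 (SE 0.34), and neither passed.

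On chromosome 9, OGN, OMD, ASPN and ECM2 are neighbours, and none of them passed. ECM2, a matrix protein with leucine-rich repeats, measured 36.1, 103 and 16.7 units on ctrl arrays 1 to 3 and 11.6, 15.0 and 5.67 units on IRE1dn arrays 1 to 3. Its groups did not overlap, with IRE1dn lower, as for 17.6% of all genes, and its change was -1.82 (SE 0.59; limma adjusted p = 0.071). It was called lower in 6 of the 16 alternatives in which it was tested, among them without ctrl array 3 and with a filter at the 40th percentile. On chromosome 1, FMOD, PRELP and OPTC are neighbours; OPTC was not analysed here. Of the 16 flanking genes of the 4 loci, 2 rose (BICD2 and CHI3L1) and 3 fell (DUSP6, ATP2B1 and IPPK), and neither of the nearest measured neighbours of BGN on each side, HAUS7 and ATP2B3, passed.

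**Figure D4:**
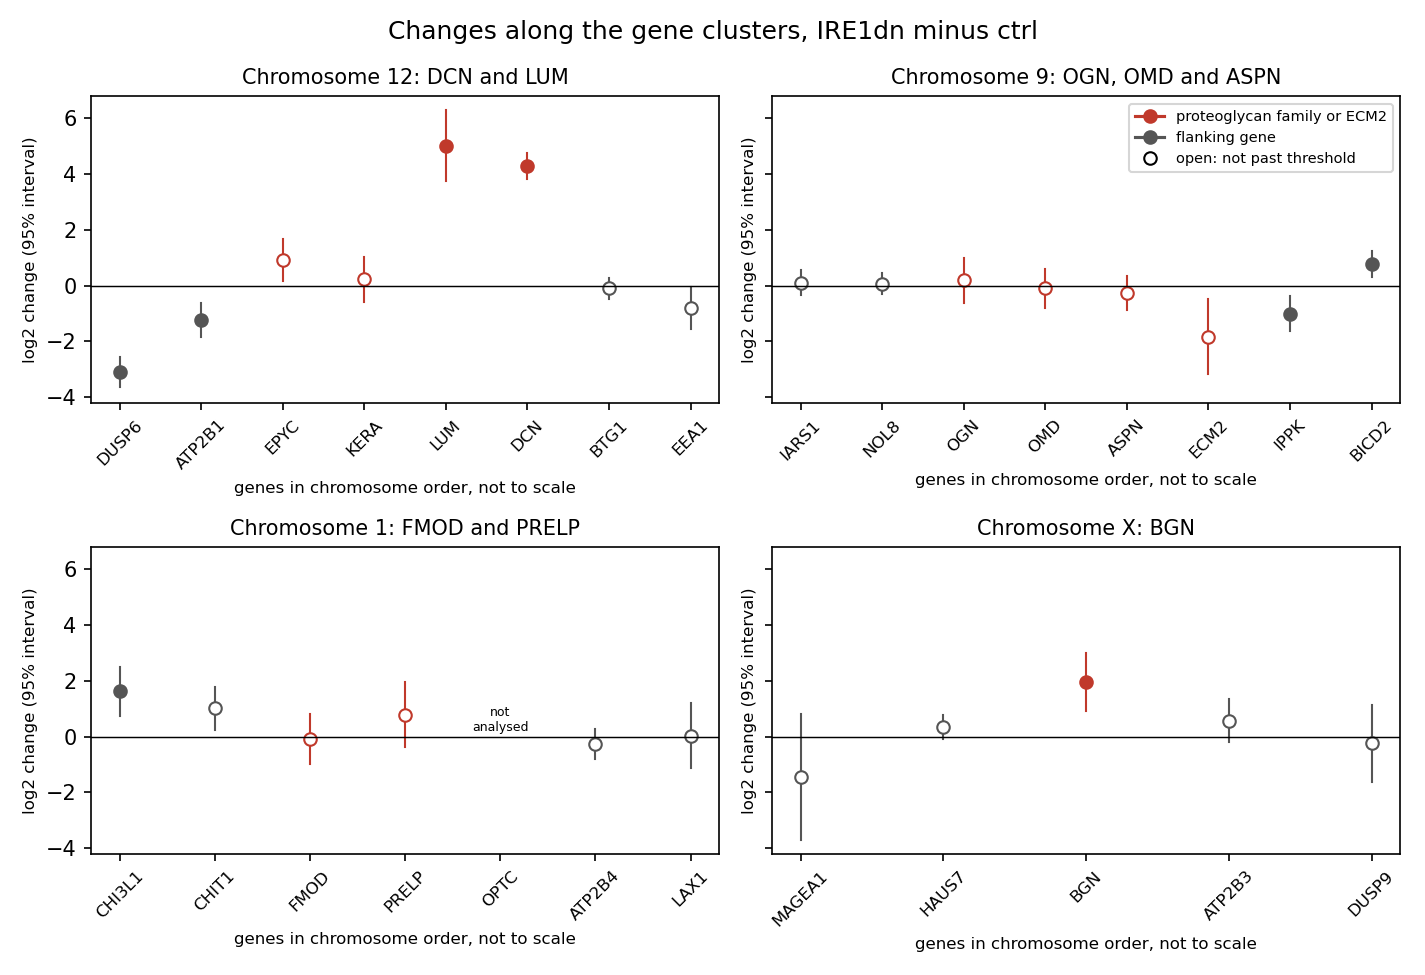
Log2 change with 95% interval (vertical axis) of the measured genes in chromosome order around DCN and LUM, around OGN, OMD and ASPN, around FMOD and PRELP, and around BGN; filled symbols passed the threshold. LUM and DCN stand at 5.02 and 4.28 beside EPYC and KERA, which did not pass, and DUSP6, which fell by 3.08.

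Other family genes and partners were counted from fixed lists, each gene by its brightest probe set. These lists were chosen with earlier results of these data known, so their counts only describe the listed genes. Over all 11963 genes 9.2% rose and 8.67% fell, and the median change was 0.02. The 7 measured genes of the 9 other family members or neighbours (EPYC, KERA, CHAD, NYX, PODNL1, TSKU and ECM2) had a median change of 0.04. None of the 7 rose or fell in limma. At an unadjusted limma p under 0.05, 1 was higher (EPYC) and 1 lower (ECM2). All genes were not counted at that level, so such counts here and below have no share of all genes beside them.

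Collagens, whose fibrils these proteoglycans coat, rose in 8 of 12 measured genes and fell in none (0 also at an unadjusted p under 0.05), with a median change of 1.28. COL5A1, a fibrillar collagen that starts fibrils, rose from 101 ± 26.6 to 1699 ± 247 units (SD, n = 3 each; change 4.08, SE 0.22; limma adjusted p = 1.7e-05). COL1A1, the main fibrillar collagen, rose by 3.94 (SE 0.51; limma adjusted p = 0.0015; 3.33 without ctrl array 2 and 4.59 without ctrl array 1), although only 3 of its 4 probe sets were higher in value. COL5A2 rose by 3.09 (SE 0.17) and COL3A1 by 2.95 (SE 0.32), the latter from 4.65 ± 1.18 to 47.4 ± 3.96 units and to a change of 1.62 with a pseudocount of 16. COL3A1 was higher in value on all 4 of its probe sets, of which 2 passed. The collagen VI genes COL6A1, COL6A2 and COL6A3, whose filaments bind decorin and biglycan, rose by 1.21, 1.14 and 1.34.

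Of the enzymes that build the sugar chains, 22 of 29 listed genes were measured; 1 rose and 2 fell, with a median change of -0.13. These counts lie near the shares of all genes, 9.2% higher and 8.67% lower, and are no result about these enzymes as a list. CHSY1, a chondroitin synthase, rose from 228 ± 41.5 to 686 ± 43.3 units (SD, n = 3 each; change 1.59, SE 0.17; limma adjusted p = 0.00058). UST, a uronyl 2-sulfotransferase of dermatan and chondroitin sulfate, fell from 66.1 ± 12.5 to 16.1 ± 1.44 units (change -1.91, SE 0.25; limma adjusted p = 0.0017) on both of its probe sets. CHST11, a chondroitin 4-sulfotransferase, fell by 1.39 (SE 0.32; limma adjusted p = 0.020); its call ended without IRE1dn array 1 or 3 or ctrl array 2 (0.053 to 0.085). Without ctrl array 3, 4 genes of this list rose.

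Of the 22 growth factors and receptors listed as binding partners, 7 rose and 1 fell, with a median change of 0.34. CCN4, a matricellular protein that binds decorin and biglycan, measured 23.0, 5.25 and 27.6 units in ctrl and 123, 174 and 139 units in IRE1dn cells (change 3.08, SE 0.48; limma adjusted p = 0.0035; 2.44 without ctrl array 2, and 2.28 with a pseudocount of 16). CCN2, connective tissue growth factor, rose by 2.18 (SE 0.29; limma adjusted p = 0.0016), and TGFB2, a TGF-beta ligand, rose by 1.76 (SE 0.31; limma adjusted p = 0.0063) on its brightest probe set. Of the 4 TGFB2 probe sets 2 passed, and 1 was lower in IRE1dn cells. The TGF-beta receptor TGFBR2, the EGF receptor EGFR, the IGF receptor IGF1R and the integrin ITGB1 rose by 0.98, 0.87, 1.12 and 0.56. The call of ITGB1 ended without any 1 of the 6 arrays (limma adjusted p 0.065 to 0.12), with equal medians (0.11), with the replicate block (0.074) and without the intensity trend (0.10). The call of EGFR ended without the intensity trend (limma adjusted p = 0.079) and without IRE1dn array 2 or 3 or ctrl array 1 or 3 (0.057 to 0.096), and that of IGF1R without any of the IRE1dn arrays (0.065 to 0.11). ITGA2, the collagen-binding integrin subunit, fell by 2.14 (SE 0.43; limma adjusted p = 0.011; 0.052 without IRE1dn array 2; a change of -1.35 with a pseudocount of 16). Without IRE1dn array 2 or IRE1dn array 3, 4 of this list rose, and without IRE1dn array 2 none fell; without ctrl array 1, 2 fell.

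Of the 17 measured proteases listed as cleaving these proteoglycans or their propeptides, 1 rose and 5 fell, with a median change of 0.05. MMP3, stromelysin, which cleaves decorin, fell from 848 ± 361 to 16.4 ± 3.26 units (SD, n = 3 each; change -5.47, SE 0.30; limma adjusted p = 1.8e-05). MMP1, interstitial collagenase, fell by 4.53 (SE 0.42; limma adjusted p = 0.00034), CTSS, cathepsin S, by 3.49 (SE 0.32; limma adjusted p = 0.00033), ADAMTS5, an aggrecanase, by 2.87 (SE 0.60; limma adjusted p = 0.013) and MMP12, macrophage elastase, by 2.29 (SE 0.59; limma adjusted p = 0.030). MMP12 measured 18.8, 27.2 and 5.03 units on ctrl arrays 1 to 3 and 3.05, 1.94 and 0.196 units on IRE1dn arrays 1 to 3, and its call ended with a pseudocount of 16 (change -0.84; limma adjusted p = 0.057), without the intensity trend (0.052) and without any of the arrays other than ctrl array 3 (0.053 to 0.12). ADAMTS5 changed by -3.63 without ctrl array 1 and -2.19 without ctrl array 2, and its call ended without IRE1dn array 2 (0.052) or IRE1dn array 3 (0.057). With a pseudocount of 16 MMP3, MMP1, CTSS and ADAMTS5 changed by -4.65, -1.96, -2.41 and -1.96. MMP14, the membrane-type protease, rose by 0.85 (SE 0.18; limma adjusted p = 0.013; 0.075 without IRE1dn array 2 and 0.072 without IRE1dn array 3). BMP1, which removes the propeptides of decorin and biglycan, measured 45.1, 31.5 and 35.6 units in ctrl and 61.9, 57.8 and 63.2 units in IRE1dn cells and did not pass (change 0.69, SE 0.22; limma adjusted p = 0.067). Without IRE1dn array 2 or IRE1dn array 3, 0 of this list rose and 3 fell, and without ctrl array 1 or ctrl array 3, 2 rose.

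Markers of other cell types moved with the proteoglycans in part. Of 8 fibroblast and pericyte markers 3 rose, ACTA2 by 3.27 (SE 0.27; limma adjusted p = 0.00017), FAP by 2.33 (SE 0.17; limma adjusted p = 8.2e-05) and PDGFRB by 1.15 (SE 0.31; limma adjusted p = 0.036), and none fell (0 also at an unadjusted p under 0.05). Their summed signal was 376 to 571 units in ctrl and 2750 to 3269 units in IRE1dn arrays. Most of the IRE1dn sum was ACTA2, at 2100, 2028 and 2692 units on IRE1dn arrays 1 to 3. The other 5 markers did not pass. Of these, PDGFRA and S100A4 were higher in value (changes of 0.59 and 0.95). RGS5, THY1 and POSTN were lower in value (changes of -0.33, -0.57 and -0.09). POSTN was under 7.55 units on every array, and THY1 measured 8.82, 7.02 and 6.91 units in ctrl and 4.41, 9.64 and 1.71 units in IRE1dn cells. The part of fibroblast-type cells in the result was not tested, and fewer or more cells of a type cannot be told apart from less or more RNA per cell. Of 3 measured leukocyte markers none passed (0 at an unadjusted p under 0.05). Their sums were 4.42 to 12.9 units in ctrl and 5.80 to 16.8 units in IRE1dn arrays. PTPRC and CD14 were under 7.55 units throughout. CD3E measured 5.895, 5.885 and 0.958 units in ctrl and 1.12, 12.9 and 13.7 units in IRE1dn cells.

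Endothelial markers summed to 26.9 to 37.1 units in ctrl and 19.7 to 23.6 units in IRE1dn arrays, and none of 5 passed in limma (2 were lower at an unadjusted p under 0.05). Epithelial markers summed to 20.6 to 28.1 and 14.0 to 27.4 units, with 1 of 4 lower (EPCAM). The labelled cell type was checked against 8 astroglial markers. GFAP, S100B, AQP4 and SLC1A2 were under 7.55 units on every array, and SOX2 was above it only on IRE1dn array 1 (8.28 units). ALDH1L1 was above 7.55 units on every array and did not pass (change -0.02, limma adjusted p = 0.98). SLC1A3 rose by 1.44 (SE 0.28, limma adjusted p = 0.0093) and OLIG2 fell by 1.74 (SE 0.43, limma adjusted p = 0.026). Of the 5 measured mesenchymal glioma markers, VIM, CD44, CHI3L1 and TNC had mean signals of 597 units or more in both groups, and CHI3L1 and TNC rose. NES was dimmer, with means of 21.3 units in ctrl and 34.4 units in IRE1dn cells, and did not pass (limma adjusted p = 0.27).

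The genes most alike to each risen member over the 6 arrays were taken from 7806 other genes with a mean above the mark of low level. DCN was closest to INPP4B (Pearson r of log2 signals 0.9995), PRKAR2B (0.9989) and DZIP1 (0.9988). LUM was closest to PRR16 (0.9983), TENM3 (0.9968) and MYL9 (0.9964), and BGN to CENPB (0.9972), RIN2 (0.9938) and TSPYL4 (0.9937). Over 6 arrays in groups of 3 the correlation mostly reflects the group difference: 930 genes had r over 0.9 with DCN, 631 with LUM and 364 with BGN. No gene was among the nearest 3 of more than 1 member. MYL9, a myosin light chain, rose by 3.54, and INPP4B, a lipid phosphatase, by 1.78.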

How the data were processed

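Expression was measured on 6 Affymetrix arrays, 3 per group. The deposited table holds 1 linear signal intensity for each of 22277 probe sets on each array. GCOS 1.2 is the software listed in the submitters' processing notes; how probes were summarised or background removed is not given in those sources. Values were transformed to log2(signal + 1.75), the pseudocount being the 20th percentile of all values. Of the 22215 probe sets left after 62 control sets, 19064 had 1 symbol in the platform annotation, 1043 several and 2108 none; symbols were updated through RefSeq identifiers (19052 matched).

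All 22215 were fitted without a filter in limma 3.58.1 (R 4.3.3; lmFit, eBayes with intensity trend, two-sided, Benjamini-Hochberg, threshold 0.05), so that each member had a value. In data simulated with this spread on 22215 probe sets, 0% of changes of 1, 66% of changes of 2 and 94% of changes of 4 (log2) were recovered; only 200 were changed per run, so these rates need not hold for the data. The number of arrays limits the precision.

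Text names every member probe set, up to 4 changed genes per list with the largest changes, 2 flanking genes on each side of a locus, and the 3 genes most alike to each risen member; other names were chosen after their values were seen. Members and lists were chosen with earlier results of these data known. Alternatives were other pseudocounts, filters, scalings and variance models, array weights, 1 probe set per gene, a replicate block and each array left out.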

Additional observations from a re-analysis of the deposited data

How the results depend on the processing

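The signal of dim probe sets limits the calls. Member probe sets that rose numbered 8; 5 did so with a filter at the 40th percentile, 4 at the 60th and 2 with 1 probe set per gene above the 40th percentile, where fewer members were tested, and 5 to 6 with 1 array left out. In the other settings 7 or 8 rose, and 0 fell in all settings. Genes of the fixed lists that rose numbered 17 (13 to 19 with 1 array left out), and those that fell numbered 8 (5 to 9). With the 60th percentile filter, where fewer of these genes were tested, 2 fell. Over all probe sets 1810 rose (771 to 1877 with 1 array left out) and 1567 fell (593 to 1561), or 936 fell without the intensity trend. With equal medians 1480 rose and 1784 fell, and with quantile normalization 1729 and 1736. Without IRE1dn array 1, 1161 rose and 1035 fell; without array 2, 771 and 593; without array 3, 838 and 673. The cause was not tested.

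Some uncalled members changed sign. With array weights OGN changed by -0.036 and PRELP 204223_at by 0.030. With 1 array left out FMOD lay between -0.38 and 0.13, OGN between -0.077 and 0.50, OMD 205907_s_at between -0.34 and 0.14 and PRELP 204223_at between -0.48 and 0.28. Proteases that rose numbered 3 with either filter, with 1 probe set per gene or with array weights, and 2 with robust eBayes. At the 60th percentile 2 proteases, 0 chain enzymes and 0 partners fell. UST, CHST11, ITGA2, MMP1, CTSS, ADAMTS5 and MMP12 did not pass that filter and were not tested there. Of the 5 proteases that fell without a filter only MMP3 was tested there. The 2 proteases therefore include one that was not called without the filter. Same-numbered arrays did not deviate together over all probe sets (correlations of -0.08, 0.02 and -0.02). With 3 arrays per group this cannot show whether same-numbered arrays were handled together. With the replicate number as a block 7 member probe sets rose, the call of BGN 201262_s_at ending as it did with robust eBayes, and 1459 probe sets rose and 1287 fell in all.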
